A study of Mus musculus with 10 samples.

Results

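Genes that target proteins to the endoplasmic reticulum (ER) and insert them into it were followed in mouse pancreatic islets. The set was taken by gene symbol from a list of 40 genes for the signal recognition particle (SRP) and its receptor, the SEC61 channel, the TRAP complex, TRAM proteins, signal peptidase, the ER membrane protein complex (EMC) and the GET pathway. The ER sheet protein CKAP4 is on the same list. The deposited table of 27665 genes held 39 of the 40, and 38 had enough reads to be tested. Srp54b was not tested, with 7 reads in all 10 libraries together, and Camlg was not found by that symbol.

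RNA sequencing compared the islets of 5 mice fed a western diet with those of 5 mice fed standard chow. All were male C57BL/6J mice with no engineered allele named in the labels, 8 to 10 weeks old at the start of the diet, which lasted 4 weeks, and their islets were processed right after isolation. Each library is 1 mouse. Of the western diet mice 4 came from cage 4 and 1 from cage 2, and all chow mice came from cage 3, so diet and cage cannot be told apart. Values per library are given below for mice 1, 2, 5 and 4 of cage 4 and mouse 5 of cage 2 on western diet, and for mice 1 to 5 of cage 3 on chow.

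A protein bound for secretion, such as proinsulin, starts with a signal peptide. SRP binds this peptide as it leaves the ribosome and docks the ribosome at the SRP receptor of the ER, after which the chain threads through the SEC61 channel with help from TRAP and TRAM, and signal peptidase cuts the signal peptide off. The EMC and the GET pathway insert other proteins, among them ones anchored by a single helix at the tail. Beta cells, the main cells of the islet, send most of their secretory output through this machinery.

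Genes of SRP, its receptor, SEC61, TRAP and signal peptidase, with the sheet protein gene Ckap4, held all the members that were higher on western diet, each by 1.14-fold to 1.35-fold. No EMC or GET gene on the list passed the test, but only 2 GET genes, Asna1 and Get4, were tested. Ubl4a, outside the list and part of a complex that loads the GET pathway, was called higher (adjusted p = 0.0260). Of the 38 genes tested, 9 were called higher and 0 lower, where called means an adjusted p under 0.05 in edgeR's quasi-likelihood test over all 15104 genes tested. That is 23.7% of the members, beside 5.27% of all tested genes called higher and 5.5% called lower. The members' median log2 fold change, western diet over chow, was 0.19 (range -0.10 to 0.50), beside 0.01 for all genes tested. The change was positive in 35 members and negative in 3. Abundant genes were called more often. Of the 16 members averaging at least 100 CPM (counts scaled to library size), 6 were called higher, beside 10.4% of all 1651 such genes.

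A further 13 members had an unadjusted p under 0.05 without being called, each with the higher mean on western diet, and 11 members not called had an adjusted p under 0.1. No member had an unadjusted p under 0.05 with a lower level, and DESeq2 and limma-voom also called 0 lower. By route, 8 of the 25 genes of SRP, its receptor, SEC61, TRAP, TRAM and signal peptidase were called higher, at a median log2 change of 0.23. In the listed EMC and GET genes 0 of 12 were called, the median was 0.05, and 1 had an unadjusted p under 0.05. DESeq2 and limma-voom called none of these 12 either. The difference between these sets of genes was not itself tested.

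**Figure D1:**
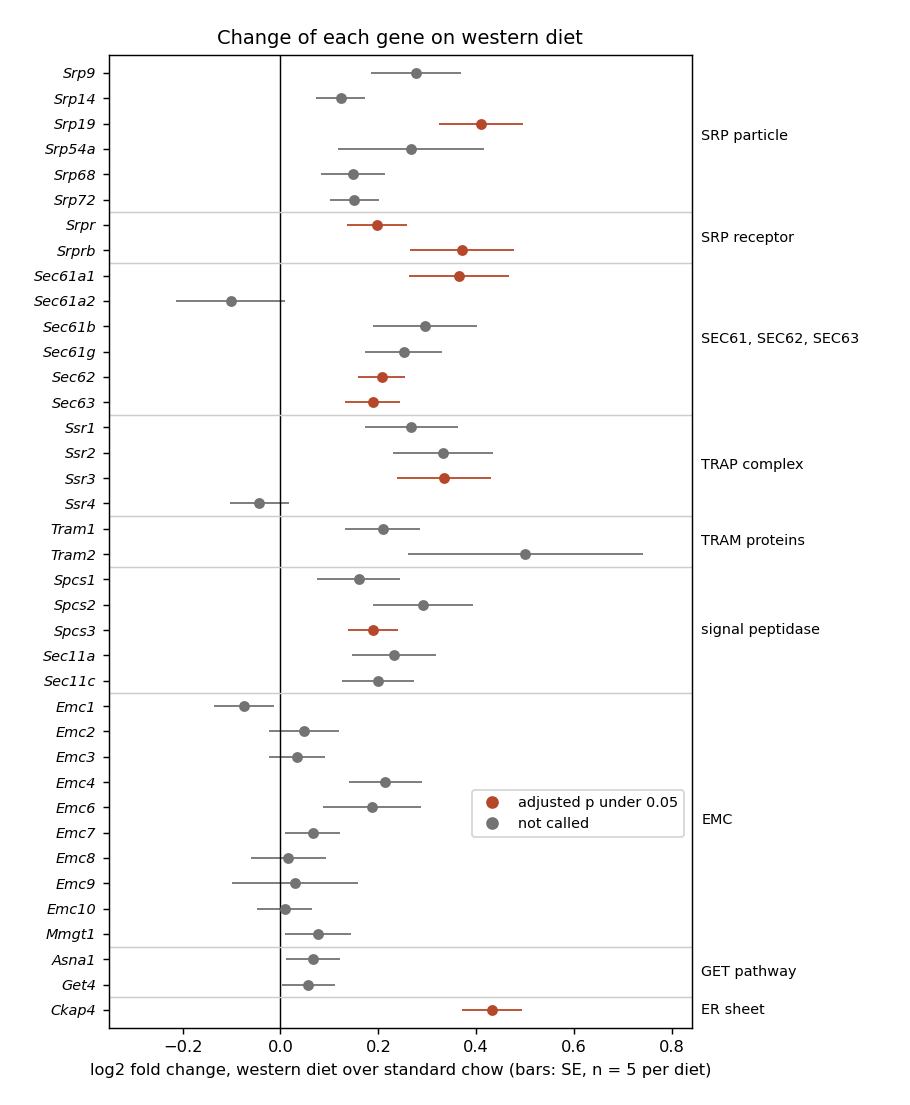
Log2 fold change of western diet over standard chow on the horizontal axis for each of the 38 tested genes, grouped by complex, with bars for the SE (n = 5 per diet). The 9 called genes are red; the 10 EMC genes lie between -0.07 and 0.21, and most genes of the complexes above them lie farther right.

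The promoter sequences of 3 called genes and of Ssr4, a TRAP gene that was not called, are shown as examples with and without a motif. The motif looked for is ACGTG, the core shared by sites of the stress factors XBP1 and ATF6, read on both strands, so that CACGT also marks it. Capitals mark this core and, in Srpr, the longer letters TGACGTG, which contain it. Ssr4 holds no match, but Ssr1, another TRAP gene that was not called, does. The windows run from 250 bases before to 50 bases after the RefSeq start on GRCm38.p6: Ckap4 chr10:84533839-84534138 (- strand), Sec62 chr3:30792626-30792925 (+ strand), Srpr chr9:35210953-35211252 (+ strand) and Ssr4 chrX:73786773-73787072 (+ strand).
Ckap4: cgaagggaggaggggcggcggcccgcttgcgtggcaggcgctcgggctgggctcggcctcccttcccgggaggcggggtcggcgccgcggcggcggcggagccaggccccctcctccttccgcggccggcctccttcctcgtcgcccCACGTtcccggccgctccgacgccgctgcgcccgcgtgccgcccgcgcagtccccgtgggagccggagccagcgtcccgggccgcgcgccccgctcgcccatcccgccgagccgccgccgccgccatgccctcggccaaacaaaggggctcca
Sec62: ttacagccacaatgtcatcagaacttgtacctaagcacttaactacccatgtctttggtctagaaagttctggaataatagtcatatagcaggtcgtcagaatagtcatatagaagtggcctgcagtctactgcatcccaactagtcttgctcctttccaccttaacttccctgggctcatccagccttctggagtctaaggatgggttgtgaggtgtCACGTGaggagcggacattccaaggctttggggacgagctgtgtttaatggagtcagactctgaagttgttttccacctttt
Srpr: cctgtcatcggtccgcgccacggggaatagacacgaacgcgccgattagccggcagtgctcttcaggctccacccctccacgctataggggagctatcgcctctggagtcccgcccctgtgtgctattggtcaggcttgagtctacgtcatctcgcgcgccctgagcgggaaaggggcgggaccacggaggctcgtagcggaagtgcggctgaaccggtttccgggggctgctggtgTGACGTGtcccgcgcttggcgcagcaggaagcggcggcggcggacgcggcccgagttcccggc
Ssr4: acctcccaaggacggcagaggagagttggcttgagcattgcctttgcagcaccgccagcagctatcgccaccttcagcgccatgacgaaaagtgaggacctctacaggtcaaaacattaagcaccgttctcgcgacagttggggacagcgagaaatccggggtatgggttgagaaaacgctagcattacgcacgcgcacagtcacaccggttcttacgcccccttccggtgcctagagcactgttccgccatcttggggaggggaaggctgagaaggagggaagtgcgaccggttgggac

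Of the 39 members, 29 had a promoter in the RefSeq table, Asna1 under its newer symbol Get3. Those with none were Emc2, Emc8, Mmgt1, Sec11c, Sec61a1, Spcs3, Srp19, Srp68, Ssr2 and Tram1. Of the 29 with a promoter, 14 held the ACGTG core, or 48.3%, including all 6 called members with a promoter. The other 8 with the core were not called: Asna1, Emc10, Get4, Spcs1, Srp14, Srp54a and Ssr1, and Srp54b, which was not tested. In the promoters of tested genes the share was 28.7% of 11033 genes, and over all 27025 genes it was 21.8%. TGACGTG occurred in Srpr alone among the members, and in 3.23% of tested genes. The site CCACG, which overlaps the core in Ckap4, Sec63 and Srprb, among others, as CCACGT, occurred in 17 of 29 members (58.6%) and in 51.6% of tested genes. The full ER stress elements ERSE and ERSE-II matched 0 member promoters and 0.163% and 0.0816% of tested genes. These are letter matches and do not show binding, nor which factor could bind.

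SRP consists of an RNA and a set of proteins, of which 6 were tested, and 1 was called. Srp19, which helps the particle assemble, had 31.3, 29.0, 33.5, 32.3 and 28.6 CPM on western diet, against 19.1, 25.7, 20.6, 26.2 and 24.6 CPM on chow. Every western diet library was above every chow library. The log2 fold change was 0.41 ± 0.09 (SE, adjusted p = 0.00601), or 1.33-fold. From here on, a value ± SE set beside an adjusted p is the log2 fold change of western diet over chow. Over all genes tested, 4.44% had every western diet library above every chow library, and among the 38 members there were 3, Srp19, Sec62 and Ckap4.

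The other SRP proteins had smaller or more variable differences, none of them called. Srp9, a part of the domain that slows translation, had 106, 98.4, 107, 105 and 90.9 CPM on western diet, against 67.3, 99.0, 75.3, 93.4 and 83.8 CPM on chow. The log2 fold change was 0.28 ± 0.09 (adjusted p = 0.0731), and 2 chow libraries, mice 2 and 4, reached into the western diet range. Srp14, the partner of SRP9 and the SRP gene of the highest level per length, had 76.8, 78.7, 70.6, 72.3 and 73.2 CPM on western diet, against 63.8, 68.8, 69.8, 66.8 and 71.9 CPM on chow (log2 fold change 0.12 ± 0.05, adjusted p = 0.121). The groups met at 1 library, chow mouse 5.

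Srp72 and Srp68 form a pair that binds the SRP RNA. Srp72 had 212, 209, 229, 228 and 208 CPM on western diet, against 185, 209.9, 189.9, 202 and 192 CPM on chow (0.15 ± 0.05, adjusted p = 0.0600). Chow mouse 2 alone overlapped the western diet libraries. Srp68 had 177, 155, 172, 179 and 143 CPM on western diet, against 132, 162, 146, 152 and 153 CPM on chow (0.15 ± 0.07, adjusted p = 0.156). For Srp68 the western diet library of cage 2 lay below 4 of the chow libraries. SRP54 is the subunit that reads the signal peptide. Srp54a averaged 19.1 ± 4.98 CPM on western diet and 15.8 ± 1.78 CPM on chow (mean ± SD, n = 5; 0.27 ± 0.15, adjusted p = 0.273). Of its 50-base stretches 70.5% recur among 2 other genes, with Srp54b the closest copy, so its counts are uncertain. Srp54c, which is outside the list, averaged 43.0 ± 4.90 CPM on western diet and 34.4 ± 6.62 CPM on chow (0.32 ± 0.13, adjusted p = 0.129). The level of Srp54a alone is thus not that of all Srp54 genes.

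Both subunits of the SRP receptor were called higher. Srpr encodes the alpha subunit that meets SRP. It had 623, 593, 608, 614 and 593 CPM on western diet, against 457, 605, 498, 562 and 521 CPM on chow, a log2 fold change of 0.20 ± 0.06 (adjusted p = 0.0450). The western diet libraries lay close together, and chow mouse 2 lay within their range. With each mouse left out in turn, Srpr lost its call in 8 of 10 fits (adjusted p = 0.138 without chow mouse 1). Of the 50-base stretches of Srpr 17.7% recur elsewhere, chiefly in the processed pseudogene Gm6733, which had 81 counts in all libraries beside 110916 for Srpr. Srprb, the beta subunit that anchors the receptor in the membrane, had 65.0, 52.5, 61.5, 54.6 and 45.1 CPM on western diet, against 34.7, 48.2, 41.7, 47.5 and 43.2 CPM on chow (0.37 ± 0.11, adjusted p = 0.0431). Western diet mouse 5 of cage 2 fell among the chow libraries. Srprb lost its call in 7 of the 10 fits with 1 mouse left out. Of the exon bases of Srprb 20.7% lie also in an exon of Gm20425 on the same strand, a gene that the deposited counts do not list. How reads there were assigned is not known, so the counts of Srprb are uncertain.

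The SEC61 channel is made of an alpha subunit that forms the pore and the small beta and gamma subunits. Sec61a1, the main alpha gene, had 429, 387, 416, 443 and 330.3 CPM on western diet, against 246, 360.1, 298, 329.7 and 324 CPM on chow, a log2 fold change of 0.36 ± 0.10 (adjusted p = 0.0442). Of the western diet libraries 4 lay above every chow library, and that of cage 2 was below chow mouse 2. Sec61a1 lost its call in 7 of the 10 fits with 1 mouse left out. Sec61a2, the second alpha gene, averaged 12.4 ± 1.06 CPM on western diet and 13.3 ± 2.29 CPM on chow (mean ± SD, n = 5; -0.10 ± 0.11, adjusted p = 0.597). Of its exon bases 19.9% overlap Nudt5 on the opposite strand.

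Sec61b and Sec61g, the beta and gamma subunits, had positive changes that were not called. Sec61b had 159, 143, 176, 143 and 143 CPM on western diet, against 99.4, 154, 113, 129 and 127 CPM on chow (0.30 ± 0.11, adjusted p = 0.0993). Sec61g had 102, 92.6, 105, 98.9 and 91.0 CPM on western diet, against 71.0, 101, 74.3, 82.2 and 81.9 CPM on chow (0.25 ± 0.08, adjusted p = 0.0542). In both genes chow mouse 2 was the one chow library inside the western diet range. Without it both were called (adjusted p = 0.0114 for Sec61b and 0.00281 for Sec61g). That mouse was the highest chow library in 28 of the 38 members, so leaving it out lowers the chow mean of those members. Their 50-base stretches recur elsewhere for 17.4% of Sec61b and 14.8% of Sec61g, so their counts are uncertain.

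SEC62 and SEC63 join the channel for chains that need help to enter, and SEC63 also recruits the chaperone BiP on the inner side. Sec62 had 258, 251, 227, 246 and 245 CPM on western diet, against 202, 220.2, 207, 216 and 218 CPM on chow, with no overlap. Its log2 fold change was 0.21 ± 0.05 (adjusted p = 0.0105), or 1.15-fold. Sec63 had 219.9, 209, 223, 219 and 189.8 CPM on western diet, against 167, 195, 182, 195 and 190.5 CPM on chow (0.19 ± 0.06, adjusted p = 0.0380). Here the western diet library of cage 2 lay below 3 chow libraries. Sec63 lost its call in 7 of the 10 fits with 1 mouse left out (adjusted p = 0.119 without chow mouse 1). An antisense gene, 4933429H19Rik, covers 11.7% of the exon bases of Sec62 and had 48 counts in all, beside 44858 for Sec62.

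TRAP is a complex of 4 subunits beside the channel that aids the entry of some signal peptides, and insulin is among the proteins known to depend on it. Ssr3, its gamma subunit, had 426, 395, 444, 443 and 345 CPM on western diet, against 259, 380.2, 317, 336 and 335 CPM on chow (0.33 ± 0.10, adjusted p = 0.0450). Only chow mouse 2 and the western diet mouse of cage 2 crossed. Ssr3 lost its call in 7 of the 10 fits with 1 mouse left out. Ssr2, the beta subunit, had 188, 182, 187, 193 and 166 CPM on western diet, against 114, 179, 133, 162 and 140.3 CPM on chow, and Ssr1, the alpha subunit, had 334, 309, 357, 344 and 278 CPM on western diet, against 219.9, 322, 251, 279 and 276 CPM on chow. Neither was called (Ssr2 0.33 ± 0.10, adjusted p = 0.0623; Ssr1 0.27 ± 0.09, adjusted p = 0.0911), and without chow mouse 2 both were (adjusted p = 0.00740 for Ssr2 and 0.0177 for Ssr1).

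Ssr4, the delta subunit, had a fold change near 0. It had 221, 185, 217, 193 and 204 CPM on western diet, against 195, 238, 206, 207 and 206 CPM on chow (-0.04 ± 0.06, adjusted p = 0.688). The ratio of Ssr3 to Ssr4 in FPKM was 1.43, 1.58, 1.52, 1.70 and 1.25 on western diet, against 0.985, 1.19, 1.14, 1.20 and 1.20 on chow. The groups did not overlap in that ratio, nor in those of Ssr2 to Ssr4 (1.35 to 1.66 on western diet and 0.972 to 1.30 on chow) and Ssr1 to Ssr4 (0.405 to 0.529 on western diet and 0.335 to 0.403 on chow). These ratios were chosen after the values had been seen and carry no test. The counts of Ssr4 share no 50-base stretch with another gene, and its exons overlap no other gene's.

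TRAM proteins lie beside the channel and contact the entering chain. Tram1 had 389, 351, 351, 366 and 338 CPM on western diet, against 257, 367, 302, 334 and 293 CPM on chow (0.21 ± 0.08, adjusted p = 0.0948). Chow mouse 2 alone overlapped, and without it Tram1 was called (adjusted p = 0.0137). Tram2, the tested member with the fewest counts, had 2.25, 5.46, 6.06, 6.71 and 4.35 CPM on western diet, against 3.70, 2.86, 3.89, 4.35 and 2.75 CPM on chow (0.50 ± 0.24, adjusted p = 0.191). This was the largest SE of any member, with western diet mouse 1 of cage 4 below all the chow libraries, and without that mouse Tram2 was called (adjusted p = 0.0255).

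Signal peptidase removes the signal peptide through a catalytic SEC11 subunit, SEC11A or SEC11C, held by the SPCS subunits. Spcs3 was the one called, with 353, 334, 337, 333 and 331 CPM on western diet, against 277, 333, 289, 289.6 and 292 CPM on chow (0.19 ± 0.05, adjusted p = 0.0254). In this gene 4 chow libraries lay together, well below all western diet libraries, and chow mouse 2 lay among the western diet values. Spcs3 lost its call in 5 of the 10 fits with 1 mouse left out. Spcs2 had 364, 316, 329, 329 and 287 CPM on western diet, against 206, 320.1, 258, 285 and 259 CPM on chow (0.29 ± 0.10, adjusted p = 0.0915). Spcs1 had 115, 117, 126, 103 and 125 CPM on western diet, against 88.2, 127, 103, 109.8 and 97.3 CPM on chow (0.16 ± 0.09, adjusted p = 0.251). Spcs1 shares 16.3% of its exon bases with Glt8d1 on the opposite strand.

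The catalytic subunits had similar fold changes and were not called. Sec11a had 68.3, 63.2, 62.8, 65.8 and 52.4 CPM on western diet, against 44.7, 62.5, 49.4, 55.6 and 53.8 CPM on chow (0.23 ± 0.09, adjusted p = 0.0963). Sec11c had 106, 99.4, 113, 96.2 and 103 CPM on western diet, against 77.5, 107, 86.2, 95.9 and 84.4 CPM on chow (0.20 ± 0.07, adjusted p = 0.0913). The ratio of Sec11c to Sec11a in FPKM ran from 2.19 to 2.93 on western diet and from 2.34 to 2.61 on chow, so the chow values lay inside the western diet range. The size of this ratio depends on the gene lengths used. Without chow mouse 2, Spcs1, Spcs2, Sec11a and Sec11c were all called (adjusted p 0.0136 to 0.0357).

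Ckap4, also known as CLIMP-63, is a membrane protein that spaces the sheets of the rough ER. It had 60.3, 61.5, 61.5, 65.4 and 54.3 CPM on western diet, against 42.1, 48.0, 41.2, 44.7 and 48.1 CPM on chow, with no overlap. The log2 fold change of 0.43 ± 0.06 (adjusted p = 0.000439), or 1.35-fold, had the smallest p of all members. The gene lies at chr10:84526305-84534062 on the minus strand of GRCm38, and its exons overlap no other gene's.

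**Figure D2:**
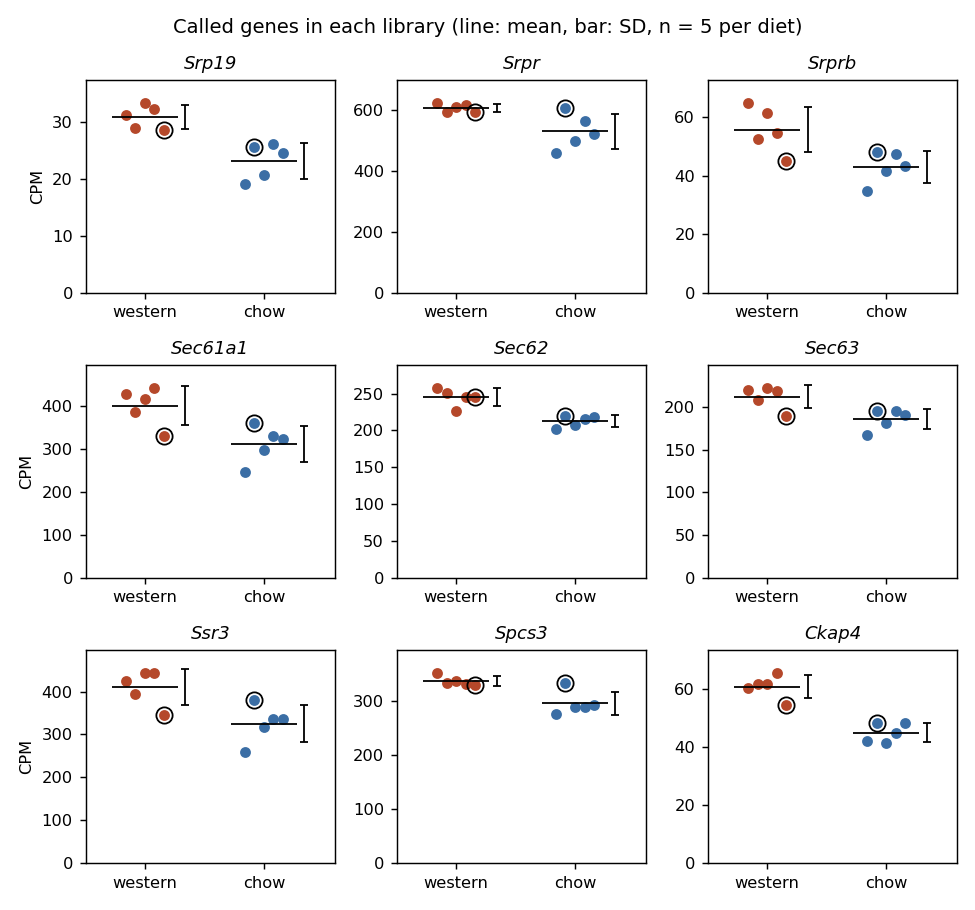
CPM (vertical axes, from 0) of the 9 called genes in each library, western diet left and chow right, with the mean as a line and the SD as a bar (n = 5 each); rings mark mouse 5 of cage 2 on western diet and mouse 2 of cage 3 on chow. Srp19, Sec62 and Ckap4 show no overlap, and in the other 6 genes the ringed libraries are where the groups meet.

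The EMC inserts membrane helices that SEC61 handles poorly, and its 10 tested genes had log2 fold changes between -0.07 and 0.21. Emc10, a luminal subunit and the EMC gene of the highest level, had 119, 125, 106, 115 and 110.1 CPM on western diet, against 113, 124, 103, 117 and 114 CPM on chow (0.01 ± 0.06, adjusted p = 0.944). The libraries of the diets were fully mixed. Emc4 was the exception with an unadjusted p of 0.00982. It had 27.0, 25.3, 29.1, 25.8 and 24.6 CPM on western diet, against 21.02, 26.2, 22.9, 21.9 and 21.4 CPM on chow (0.21 ± 0.07, adjusted p = 0.0713), and it was called without chow mouse 2 (adjusted p = 0.0227).

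Emc6, a core subunit of the insertase, had a log2 fold change of 0.19 ± 0.10 (adjusted p = 0.241). Emc3, the subunit related to the bacterial insertase YidC, averaged 33.5 ± 1.22 CPM on western diet and 32.7 ± 1.41 CPM on chow (mean ± SD, n = 5; 0.03 ± 0.06). Emc1, the largest subunit, averaged 29.3 ± 2.04 CPM on western diet and 30.8 ± 0.492 CPM on chow (-0.07 ± 0.06). The remaining changes were 0.05 ± 0.07 for Emc2, 0.07 ± 0.06 for Emc7, 0.02 ± 0.08 for Emc8, 0.03 ± 0.13 for Emc9 and 0.08 ± 0.07 for Mmgt1, which is EMC5. Of the exon bases of Emc1 30.9% lie in exons of other genes, chiefly of 2700016F22Rik on the opposite strand. The adjusted p-values of Emc2, Emc7, Emc8, Emc9 and Mmgt1 ran from 0.481 to 0.921, and Emc9, the EMC gene with the fewest counts, had the widest SE.

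In the GET pathway, GET4 belongs to the complex that hands over tail-anchored proteins and ASNA1 is the ATPase that carries them to the ER. Asna1 had 60.7, 58.1, 58.5, 56.9 and 57.5 CPM on western diet, against 50.1, 61.5, 56.6, 56.4 and 54.2 CPM on chow (0.07 ± 0.06, adjusted p = 0.474). Get4 averaged 49.5 ± 2.83 CPM on western diet and 47.5 ± 1.65 CPM on chow (mean ± SD, n = 5; 0.06 ± 0.05, adjusted p = 0.536). Under the older symbol Caml, the gene of the GET receptor subunit CAMLG averaged 27.2 ± 0.967 CPM on western diet and 24.3 ± 1.99 CPM on chow (0.16 ± 0.07, adjusted p = 0.132), and it is not counted among the members.

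**Figure D3:**
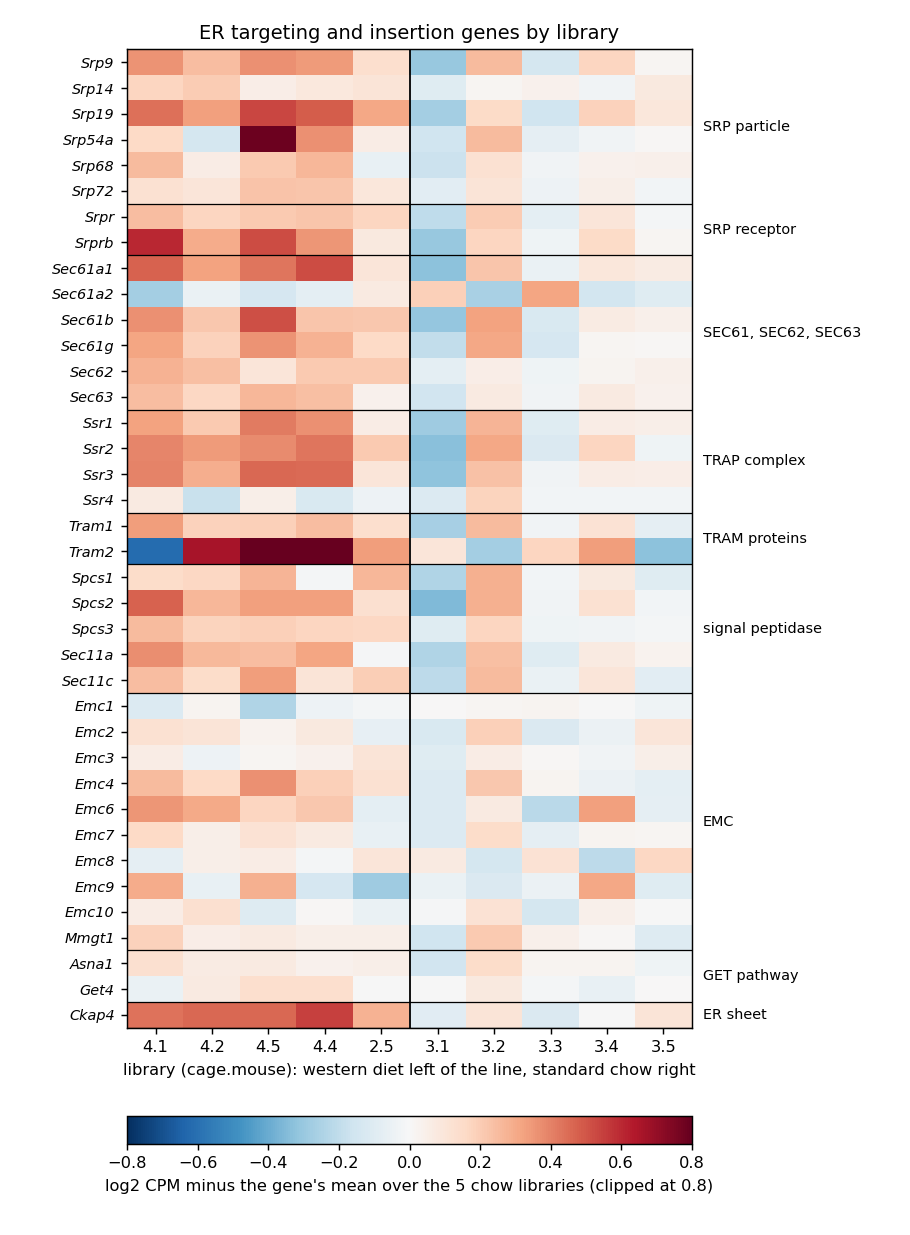
Log2 CPM minus the chow mean for the 38 tested genes (rows, by complex) in 5 western diet libraries (left of the line) and 5 chow libraries (right), with a colour scale clipped at 0.8. Chow mouse 1 (3.1) is the lowest chow library in 29 genes and chow mouse 2 (3.2) the highest in 28, and most EMC and GET rows are paler than those above.

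Libraries of 1 diet also differed, and many members differed the same way. Chow mouse 2 was the highest of the 5 chow libraries in 28 of the 38 members and chow mouse 1 the lowest in 29, and western diet mouse 5 of cage 2 was the lowest of its diet in 23. The members' CPM summed to 5662, 5282, 5588, 5536 and 5007 on western diet, against 4042, 5315, 4481, 4848 and 4656 on chow. They made up 0.500% to 0.561% of all counts on western diet and 0.408% to 0.515% on chow. In 17 of the 38 members every western diet library lay above the other 4 chow libraries, as in 6.66% of all genes tested, and in 14 of these chow mouse 2 overlapped the western diet range.

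The number of members called differed with the mice included. Without chow mouse 2 it was 21 of 38, beside 5.65% of all genes tested in that fit. Without western diet mouse 5 of cage 2, which leaves cage 4 against cage 3, it was 14 of 38, beside 6.01% of all genes. Leaving out any of the 4 western diet mice of cage 4 left 4 called, and leaving out chow mouse 1, 3, 4 or 5 left 5, 3, 6 or 3, and in these 8 fits 2.47% to 4.25% of all genes were called higher. No member was called lower in any of these fits. Ckap4 and Srp19 were called with any 1 mouse left out (adjusted p up to 0.00476 for Ckap4 and 0.0315 for Srp19 over all alternatives), and so was Sec62. The other 6 called members lost the call in many of these 10 fits. Srpr lost it in 8, Sec61a1, Sec63, Srprb and Ssr3 in 7 each, and Spcs3 in 5.

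**Figure D4:**
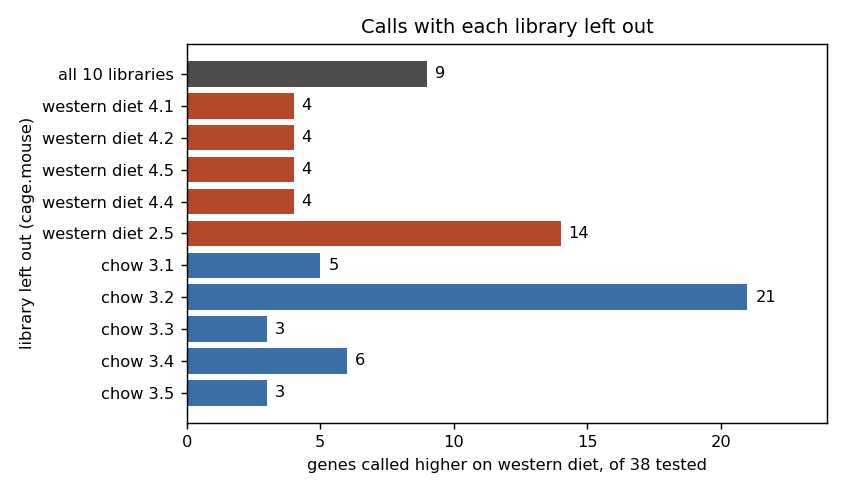
Number of genes called higher on western diet, of 38 tested (horizontal axis, from 0), with all 10 libraries and with each library left out in turn (named by cage and mouse). The count is 9 with all libraries, 21 without chow 3.2, 14 without western diet 2.5, and 3 to 6 without any other library.

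Other measures moved with the diets or with these mice. In bulk tissue a change in the share of a cell type and a change in RNA per cell cannot be told apart. All 10 genes of a list for the response to dissociation and heat shock (Fos, Jun, Hspa1a and others) were called lower on western diet, and their summed level was 8232 to 10180 CPM on western diet and 15018 to 18662 CPM on chow, without overlap. Their part in the members' change was not tested. None of 17 acinar markers was called, with sums of 983, 1701, 7142, 4419 and 1155 CPM on western diet and 840, 3352, 2116, 3526 and 2257 CPM on chow. With the acinar mean as a covariate 15 members were called higher, beside 933 of all 15104 genes. The part of acinar RNA in the members' change was not tested further. Of the beta cell markers Iapp and G6pc2 were called higher and Slc2a2 lower, Ins1 and Ins2 were not called, and the list summed to 240469 to 274956 CPM on western diet and 229062 to 264794 CPM on chow.

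Duct, endothelial, macrophage and stellate lists had a few lower calls (Krt19 and Muc1, Kdr, C1qa, Pdgfrb) and no higher ones. Summed levels were 255 to 275 CPM on western diet and 247 to 279.7 CPM on chow for duct, 229 to 274 CPM on western diet and 271 to 299 CPM on chow for endothelium, 52.5 to 84.9 CPM on western diet and 68.2 to 86.3 CPM on chow for macrophages, and 22.4 to 47.7 CPM on western diet and 25.0 to 135 CPM on chow for stellate cells. Most of the duct sum was Krt7, at a mean of 235 CPM on western diet and 225 CPM on chow, so it says little about the other duct genes. No marker of any list was at 0 in every library. Total counts per library ran from 16532518 to 23902681.

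Levels per length, in the deposited FPKM (fragments per kilobase of exon, scaled to library depth), set the order of the genes within each complex. The alpha subunit Srpr was the highest of all members, at 179.9 ± 3.77 FPKM on western diet and 157 ± 17.1 FPKM on chow (mean ± SD, n = 5), while its partner Srprb was at 13.0 ± 1.80 FPKM on western diet and 10.0 ± 1.28 FPKM on chow. In the channel Sec61b led with 120.0 ± 11.1 FPKM on western diet and 98.0 ± 16.1 FPKM on chow. Sec61a1 (59.5 ± 6.54 FPKM on western diet, 46.3 ± 6.40 FPKM on chow) and Sec62 (56.4 ± 2.88 FPKM on western diet, 49.0 ± 1.86 FPKM on chow) followed within each other's spread. Then came Sec61g, Sec63 and, at 2.70 ± 0.235 FPKM on western diet and 2.91 ± 0.500 FPKM on chow, Sec61a2.

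Within TRAP, Ssr2 and Ssr3 were alike at 98.2 ± 5.47 and 98.2 ± 9.72 FPKM on western diet and at 78.2 ± 13.6 and 78.0 ± 10.6 FPKM on chow. Ssr4 was at 65.8 ± 4.78 FPKM on western diet and 68.0 ± 5.23 FPKM on chow, and Ssr1 was the lowest at 31.1 ± 2.90 FPKM on western diet and 25.9 ± 3.66 FPKM on chow. Tram1 stood at 113 ± 6.19 FPKM on western diet and 98.2 ± 13.4 FPKM on chow, far above Tram2 at 0.744 ± 0.261 FPKM on western diet and 0.527 ± 0.103 FPKM on chow. In signal peptidase Spcs3 led at 97.2 ± 2.59 FPKM on western diet and 85.5 ± 6.29 FPKM on chow, Spcs2 and Spcs1 lay within each other's spread, and Sec11c was above Sec11a. That last order rests on unlike lengths: the deposited length of Sec11c is 3084 bases, though its annotated exons cover 6808. For Sec11a both are 4614. In SRP, Srp14 and Srp68 came first within each other's spread, and Srp54a last of the members tested. Srp54c was not ranked. Srp54b was listed at 0 in 8 libraries.

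The EMC genes ran from Emc10 at 39.4 ± 2.61 FPKM on western diet and 39.2 ± 2.56 FPKM on chow, through Emc4, to Emc9 at 3.75 ± 0.668 FPKM on western diet and 3.69 ± 0.488 FPKM on chow. Emc7 and Emc6 did not differ beyond their spread, and neither did Emc8 and Emc9. The FPKM of Sec61a1, Sec61b and Sec61g together over that of the 10 EMC genes was 1.62, 1.50, 1.80, 1.63 and 1.56 on western diet, against 1.18, 1.55, 1.34, 1.40 and 1.43 on chow, so that chow mouse 2 alone overlapped. The deposited length is the union of all annotated exons for 38 of the 39 genes, the exception being Sec11c. A union length lowers the FPKM of genes with long exons that islets do not use.

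**Figure D5:**
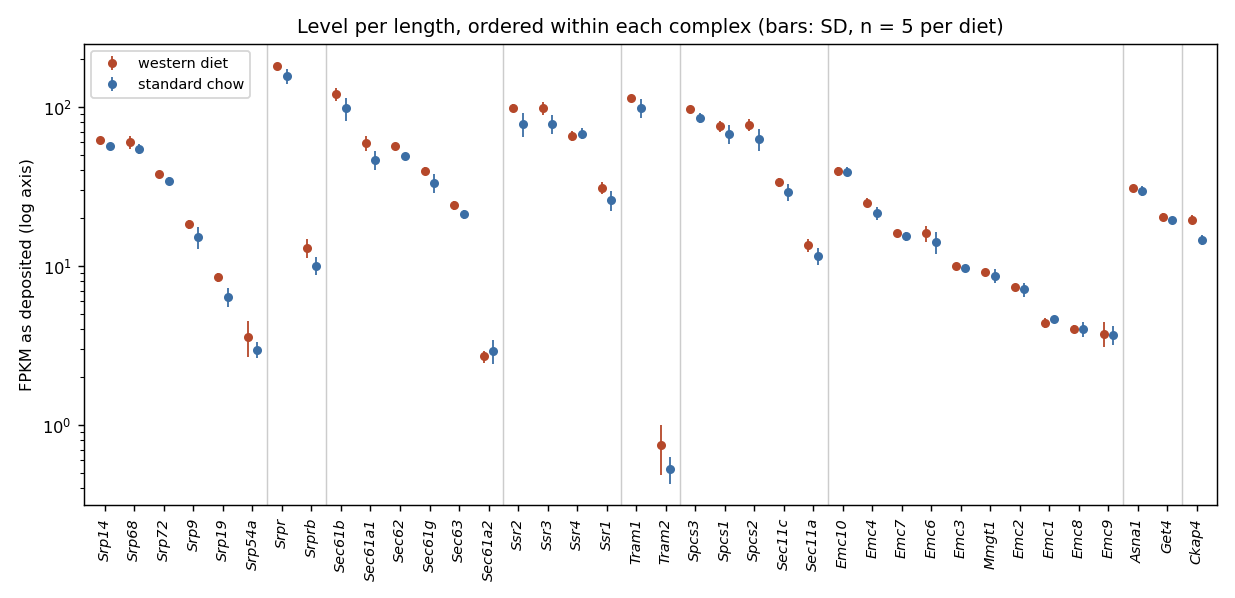
Deposited FPKM (log axis) of the 38 tested genes, ordered by level within each complex, as mean and SD for western diet (red) and chow (blue), n = 5 each. Srpr is the highest at 179.9 FPKM on western diet and Tram2 the lowest at 0.744 FPKM.

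Of 32 further genes of the pathway, 5 (15.6%) were called higher and 2 lower, at a median log2 change of 0.10. Over all genes tested, 5.27% were called higher and 5.5% lower. Of the genes that bind nascent chains or pass them on, 1 of 7 was called. Ubl4a, part of the BAG6 complex that loads the GET pathway, averaged 42.6 ± 2.69 CPM on western diet and 36.3 ± 2.54 CPM on chow (mean ± SD, n = 5; log2 fold change 0.23 ± 0.06, adjusted p = 0.0260) without overlap. Naca, which binds nascent chains at the ribosome, averaged 157 ± 9.21 CPM on western diet and 141 ± 1.42 CPM on chow, also without overlap (0.15 ± 0.05, adjusted p = 0.0506).

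Factors that insert proteins with several helices, and the SND route, had 3 of 7 called. Ccdc47 and Nomo1, parts of the multipass translocon, averaged 106 ± 5.92 and 103 ± 2.88 CPM on western diet and 90.7 ± 7.83 and 86.4 ± 11.2 CPM on chow (Ccdc47 0.23 ± 0.06, adjusted p = 0.0222; Nomo1 0.25 ± 0.07, adjusted p = 0.0320). Tmem208, whose human form acts in the SND route, averaged 26.2 ± 3.20 CPM on western diet and 20.96 ± 3.01 CPM on chow (0.32 ± 0.10, adjusted p = 0.0483).

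On the luminal side of SEC61, 1 of 6 genes was called, and it was lower. Hspa5 encodes BiP, the chaperone that draws chains through the channel and that SEC63 recruits. It averaged 2505 ± 328 CPM on western diet and 4312 ± 721 CPM on chow, without overlap (-0.78 ± 0.13, adjusted p = 0.00727). Dnajc3, a cochaperone of BiP, averaged 537 ± 49.7 CPM on western diet and 444 ± 65.6 CPM on chow (0.27 ± 0.10, adjusted p = 0.0909).

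Of the genes for ribosome binding and ER sheets, Lrrc59, a ribosome-binding ER membrane protein, averaged 185 ± 19.9 CPM on western diet and 142 ± 13.4 CPM on chow (0.38 ± 0.08, adjusted p = 0.00740). Ktn1, the kinesin-binding protein kinectin found on ER sheets with CKAP4, was lower, at 93.2 ± 4.56 CPM on western diet and 110.1 ± 5.46 CPM on chow without overlap (-0.24 ± 0.05, adjusted p = 0.00623). The other 4 genes of that list were not called. A list for the clearing of peptides or clogged channels held 4 genes, of which Hm13 was not found by that symbol. None of the 3 found was called, with Zmpste24 at 0.07 ± 0.05 (adjusted p = 0.373) and Sppl2a at -0.06 ± 0.05 (adjusted p = 0.493). None of 3 further membrane proteins of insertion and lipid scrambling was called, with Vmp1 at 0.21 ± 0.07 (adjusted p = 0.0756) and Tmem41b at 0.12 ± 0.07 (adjusted p = 0.268).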

How the data were processed

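The authors deposited 1 table with read counts per gene, whole numbers that are not normalized, and FPKM per gene, per the file headers. The submitters' processing notes name STAR 2.5, HTSeq 2 and DESeq2, with mouse builds mm10 and GRCm38. Whether counting used strand was not stated in the labels or headers, so overlapping genes cannot be told apart by strand. In this table FPKM is the count times 1 constant per library over the gene length. A further 10 columns of normalized values per sample and the authors' comparison were not used here.

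Diets were compared on the counts by edgeR 4.0.16 (R 4.3.3), using filterByExpr with a minimum count of 10, TMM factors, quasi-likelihood with robust moderation, no covariate. P-values were adjusted by Benjamini-Hochberg over all 15104 genes tested. CPM use the TMM factors. Standard errors (SE) are the log2 fold change over the root of F. The test was checked on simulated counts. Beyond cage and mouse numbers, with 1 mouse per library, nothing in the labels describes the replicates, and errors are over mice. Alternatives were other scalings and filters, DESeq2 1.42.0, limma-voom 3.58.1, an acinar covariate, a block for mouse number and fits with mice left out. Members and lists were chosen with earlier results of these data known, so they give no independent support. Genes outside the member list are named when called, or as the 2 with the smallest p of their list. Caml and Srp54c are named beside the listed genes they relate to. Overlaps and shared 50-base stretches come from GENCODE M21 (GRCm38), with 10% as the limit for calling counts uncertain. Promoters are from RefSeq (GRCm38.p6). Some items are not reported here.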

Additional observations from a re-analysis of the deposited data

Results flagged for a closer look

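In the 76 sets of 5 libraries looked at (38 genes in 2 diets), 4 held 1 library that stood apart by Dixon's test, whose critical value for 5 is 0.71. Chance flags about 1 in 20 such sets. Spcs3 stood apart in both diets. Its western diet library of cage 4 mouse 1 had 353 CPM, with the other 4 between 331 and 337 CPM, and its chow library of mouse 2 had 333 CPM, with the other 4 between 277 and 292 CPM. Mmgt1 had 41.5 CPM in western diet mouse 1 of cage 4, with the others at 37.7 to 38.5 CPM. Emc9 had 11.2 CPM in chow mouse 4, with the others at 8.33 to 8.75 CPM.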

How the results depend on the processing

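The count of members called higher, 9 with all mice, was 7 to 10 with RLE or upper quartile factors, library sizes without the 10 most abundant genes, no filter, a filter at 5 CPM, limma-voom or no robust moderation. In these fits 677 to 753 of all genes tested were called higher. The members' count was 16 with DESeq2, beside 944 of 15104 genes called higher, and 15 with the acinar mean as a covariate, beside 933. With 1 mouse left out the members' count ran from 3 to 21, beside 2.47% to 6.01% of all genes called higher. The count of members without overlap (3 with all mice) ran from 3 to 17, beside 4.38% to 7.25% of all genes with western diet above. The count of all genes called (1627) ran from 938 to 1813. With chow mouse 2 and western diet mouse 5 of cage 2 both left out, chosen after seeing the data, 21 members were called, beside 6.4% of all genes called higher, and 24 lay above chow without overlap, beside 9.89% of all genes. With chow mice 1 and 2 both left out, likewise chosen, 12 were called, beside 2.2% of all genes called higher, 14 lay above without overlap, beside 7.02%, and 696 genes were called in all. The cause of these shifts was not tested. With mouse number as a replicate block 2 members were called higher, and 841 genes were called in all, 342 of them higher. The numbers do not pair the mice: deviations of same-numbered mice had correlations of -0.129 to 0.0483. No member was called lower under any alternative. Over the 23 members called with all mice or under some alternative, 459 alternative values held 0 reversals, 55 lost calls and 35 new calls. Of the others, Emc8 (-0.04 to 0.06), Emc9 (-0.05 to 0.11), Emc10 (-0.03 to 0.04) and Ssr4 (-0.08 to 0.00) took both signs without a call. Ckap4 and Srp19 were called under every alternative. Sec62 lost its call under the block (adjusted p = 0.0601) and with chow mice 1 and 2 both left out (adjusted p = 0.0550). Tram2 and Emc9 had the fewest counts of the tested members.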
